A study of Mus musculus with 23 samples.

Results

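The 10 genes described here are Trp53, Mdm2, Ccng1, Trp53inp1, Bbc3, Gdf15, Btg2, Sesn1, Zmat3 and Phlda3. They are the gene for the p53 protein and 9 of its textbook targets, chosen by name from the pathway. Earlier results of these data were known when these genes were chosen. They were measured by 11 of the 26582 probes that carried a gene name, which covered 20145 genes, and Trp53inp1 was the member with 2 probes. Gene expression was measured on 23 arrays of TM4 cells, an immortalized mouse line labelled as Sertoli cells, the nurse cells of the testis, kept for 48 hours in 1% DMSO alone or in the same vehicle with 100 µM of 1 of 5 compounds (DOM, DOS, BDB, DINCH or MEHP). MEHP is the monoester breakdown product of the phthalate plasticizer DEHP, DINCH is a commercial cyclohexane dicarboxylate ester used in its place, and DOM (dioctyl maleate), BDB (butanediol dibenzoate) and DOS (dioctyl succinate) are candidate replacements. Each group had 4 arrays, labelled as biological replicates, except DOS with 3, because the authors left out 1 DOS replicate for high background. All groups came from this 1 cell line, at a single dose and time.

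p53 is a transcription factor that accumulates when DNA is damaged or the cell is otherwise stressed. It then switches on genes that halt the cell cycle, repair DNA, limit oxidative damage or start cell death, and also Mdm2, whose product marks p53 for destruction and so closes a feedback loop. p53 itself is controlled largely at the level of the protein, which an array does not measure. Several of these targets also answer to other factors, among them ATF4, the factor of the integrated stress response, which raises Gdf15 and the related Sesn2.

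The promoters were searched for the p53 half-site, a palindrome of 10 letters that p53 binds in tandem pairs. RefSeq promoter windows, 250 bases before to 50 bases after a listed start (mouse build GRCm38.p6), were at hand for 8 of the members in 12 windows, and not for Trp53inp1 and Zmat3. Of these windows 4, in 4 genes, held a half-site (33.3%), against 8.36% of the 32851 windows of all genes, and none held a pair of half-sites with a spacer of at most 13 bases, which 0.0731% of all windows held. The 4 matches are shown because they place the sequence p53 recognises beside the genes measured, with the half-site in capitals and 20 bases on each side, 5′ to 3′ on the strand of the gene. Distances run from the first base of the half-site to the start that defines the window, which need not be the outermost start of the gene.
Ccng1, chr11:40755442-40755491, minus strand, 185 bases before the window's start site: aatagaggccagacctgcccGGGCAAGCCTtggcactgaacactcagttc
Mdm2, chr10:117710915-117710964, minus strand, 186 bases before the window's start site: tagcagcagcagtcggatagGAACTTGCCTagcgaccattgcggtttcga
Sesn1, chr10:41887246-41887295, plus strand, 173 bases before the window's start site, a second listed start of the gene: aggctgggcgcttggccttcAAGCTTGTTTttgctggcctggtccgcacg
Trp53, chr11:69580264-69580313, plus strand, 75 bases before the window's start site: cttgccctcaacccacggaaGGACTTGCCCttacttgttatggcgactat
Sites outside these windows, or with a mismatched letter, were not searched. A match of letters is a description of the window and was not tested as a binding site.

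Levels are given as the log2 of the probe's processed signal minus that array's 75th percentile, so that 0 is the 75th percentile of the array, and a level of one gene is not set against that of another. A gene was called changed when limma's adjusted p was below 0.05 over all probes tested and the change exceeded 1.5-fold. All 10 members were well above background on all 23 arrays and were tested in all 5 comparisons with DMSO, which share the same 4 DMSO arrays. The 75th percentile of the signal ranged from 204.6 to 350.7 between arrays, 43.4% to 52.2% of spots were well above background, and no spot was saturated. The arrays lay on 3 slides, and MEHP, DINCH and BDB lay in other slide rows than DMSO, so for these 3 compounds row and treatment cannot be told apart. Of the Sertoli cell markers, Gata4, Inhbb, Inha, Kitl, Dhh and Vim were detected on all arrays, Sox9 was detected on 20 arrays, and Wt1, Fshr and Cldn11, which are defining genes of Sertoli cells, on none. Of the markers of other testis cells, 3 of 5 myoid, 1 of 5 Leydig, 0 of 5 germ cell and 1 of 3 macrophage genes were detected on all arrays. DOM and DINCH shifted some of these markers. Inhbb and Inha rose with DOM by 1.61 and 1.05 on the log2 scale while Sox9 changed by -0.92 and the myoid marker Cnn1 by -1.21, and Dhh and Inha rose with DINCH by 1.09 and 0.64. With DOS no marker was called, but the 3 myoid markers tested, Acta2, Cnn1 and Tagln, differed by 0.71, 0.81 and 0.71. Each had all DOS arrays above all DMSO arrays (limma adjusted p from 0.359 to 0.368), beside 517 of 11933 genes tested. The part of these differences in the results for the p53 targets was not tested, and in such bulk RNA fewer cells of a kind and less RNA per cell cannot be told apart.

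In the fit of each compound with DMSO, DOM was the one compound with called members. Trp53inp1 (on 1 of its 2 probes) and Sesn1 rose and Gdf15 fell, while Mdm2, the feedback target, did not pass the test. These 3 of 10 members stand beside 20.5% of all genes tested (2463 of 12005), and the median log2 change was 0.08 over the members against -0.03 over all genes. With MEHP, DINCH, BDB and DOS, 0 of 10 members were called by limma, beside 1.69%, 8.26%, 0% and 0% of all genes. These counts are from the fit without a block: Btg2 was called with DINCH when the replicate number or the slide was a block, and Trp53inp1 with BDB when the slide was. At an unadjusted p below 0.05 the counts of members were 1 with MEHP, 5 with DINCH, 4 with BDB and 1 with DOS, beside 21.6%, 34.4%, 19.0% and 7.73% of all genes. The called members thus lay in both directions with DOM. The median change over the members was -0.16 with DINCH, -0.08 with BDB, -0.01 with DOS and -7.43e-05 with MEHP, beside -0.00, -0.03, -0.01 and -0.01 over all genes.

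**Figure D1:**
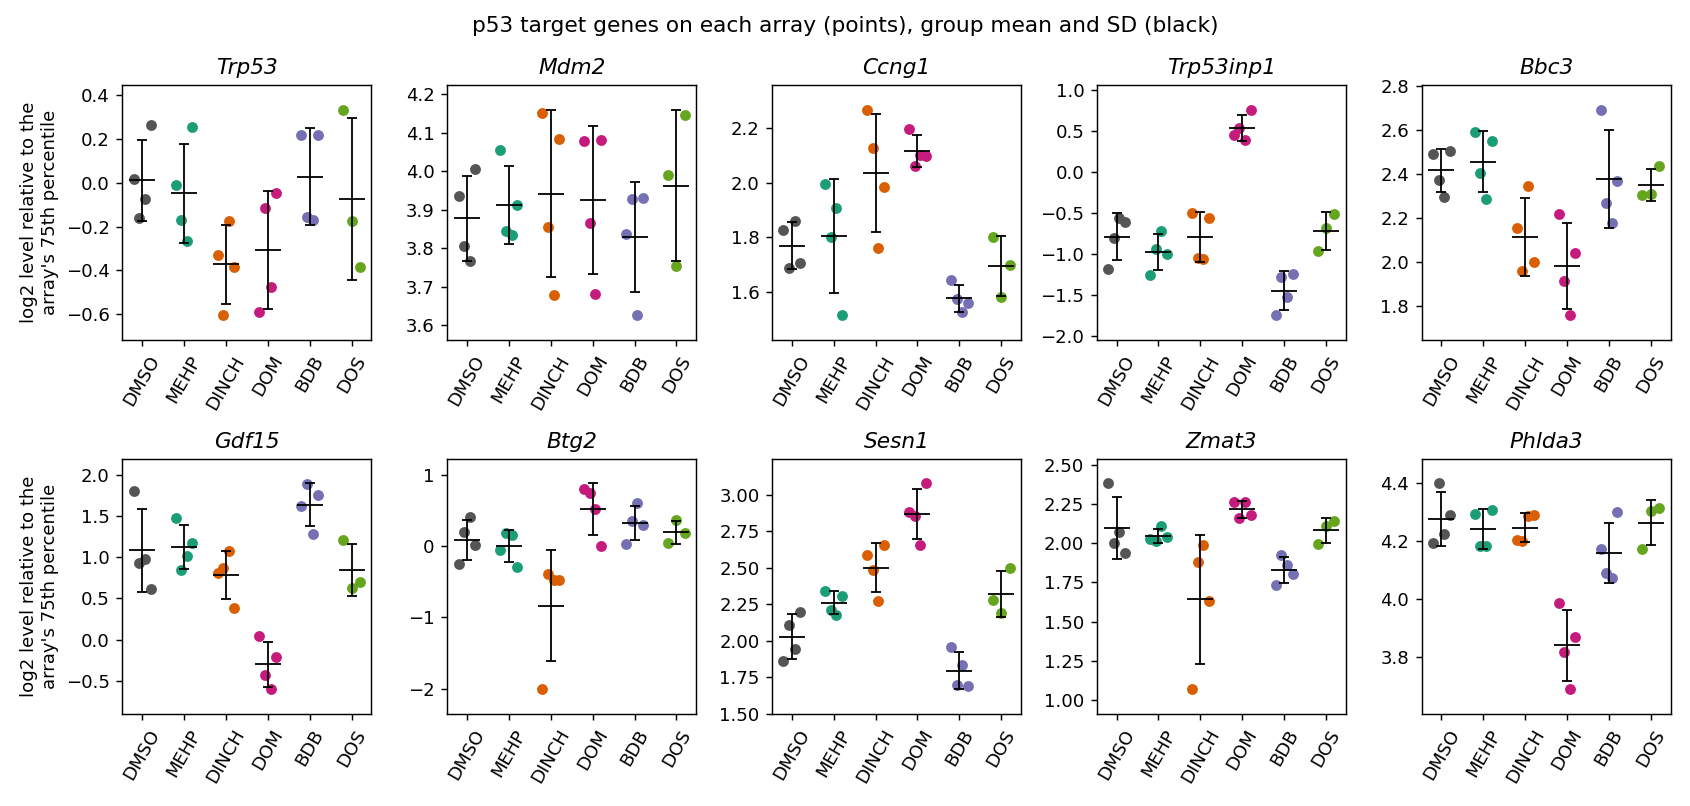
Each panel plots 1 gene: every point is 1 array, the y axis is the log2 level relative to the array's 75th percentile (its range differs between panels), and black bars are the group mean and SD. The 4 DOM arrays stand above the 4 DMSO arrays for Trp53inp1 (its brighter probe), Sesn1 and Ccng1. They stand below for Gdf15, Bbc3 and Phlda3, and for Mdm2 the groups overlap.

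Of the regulators, Mdm2, the ubiquitin ligase that both targets p53 for destruction and is induced by it, had the narrowest range of changes among the 10 members over the 5 compounds. Its level was 3.93, 3.81, 3.77 and 4.00 on the 4 DMSO arrays and 4.08, 3.87, 3.68 and 4.08 on the 4 DOM arrays. The groups overlapped throughout, and its log2 change lay between -0.05 (BDB) and 0.08 (DOS). With DOM the change was 0.05 (SE 0.12, limma adjusted p = 0.782), with a 95% interval of -0.22 to 0.32, which does not reach a 1.5-fold change in either direction.

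Trp53, the transcript of p53 itself, was at 0.02, -0.16, -0.07 and 0.27 with DMSO and at -0.33, -0.61, -0.17 and -0.38 with DINCH. All 4 DINCH arrays lay below all DMSO arrays, though by a narrow margin on 1 array, and the log2 difference of -0.39 (SE 0.13) did not pass the test (limma adjusted p = 0.0926). With DOM the 4 arrays, at -0.59, -0.11, -0.48 and -0.05, overlapped DMSO, with a difference of -0.32 (limma adjusted p = 0.143). With MEHP, BDB and DOS the differences were -0.06, 0.02 and -0.09.

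Among the targets that act on the cell cycle, Ccng1, a cyclin that recruits a phosphatase to Mdm2, was at 1.82, 1.69, 1.86 and 1.70 with DMSO and at 2.20, 2.06, 2.10 and 2.10 with DOM. The DOM arrays were all higher, and the log2 change of 0.35 (SE 0.09) passed the test without reaching 1.5-fold (limma adjusted p = 0.0171). With BDB its level was 1.64, 1.57, 1.53 and 1.56, below all DMSO arrays, but the difference of -0.19 did not pass (limma adjusted p = 0.326). With DINCH the arrays, at 2.27, 2.13, 1.76 and 1.98, overlapped DMSO, with a difference of 0.27 (limma adjusted p = 0.205).

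Btg2, an antiproliferative gene that promotes the removal of messenger RNA tails, had its largest difference with DINCH. Its level was -0.25, 0.20, 0.40 and 0.01 on the DMSO arrays and -2.01, -0.39, -0.47 and -0.48 on the DINCH arrays. All DINCH arrays lay below all DMSO arrays, and replicate 1 lay far below the other DINCH arrays. DINCH replicate 1 also had the lowest 75th percentile of the signal of the 23 arrays, 204.6. The part of this in its Btg2 level was not tested. The log2 difference was -0.93 (SE 0.34) and did not pass the test (limma adjusted p = 0.119). With the replicate number as a block it was called at the same size, -0.93, and without DINCH replicate 1 the difference was -0.54 and not called. Within the 3 slides it was -1.75, -0.69 and -0.49, the first of these being the slide that held replicate 1. With DOM the arrays of Btg2 lay at 0.80, 0.74, 0.53 and -0.00, overlapping DMSO, with a difference of 0.43 (SE 0.20, limma adjusted p = 0.137).

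Among the targets that act in cell death, Trp53inp1, a nuclear protein that promotes p53-dependent arrest and death and also takes part in autophagy, had the largest rise of the 10 members with DOM. Its brighter probe was at -1.18, -0.81, -0.56 and -0.61 with DMSO and at 0.45, 0.54, 0.39 and 0.76 with DOM. Every DOM array was above every DMSO array. The log2 change was 1.32 (SE 0.15, 95% interval 0.98 to 1.67, limma adjusted p = 0.000532), a rise of 2.50-fold, and within the 3 slides it was 1.68, 1.07 and 1.37. The second probe of the gene, with a lower mean level (-2.87 against -0.70), did not show it: its change with DOM was 0.11 (SE 0.15, limma adjusted p = 0.609), so the rise rests on 1 probe, and which transcripts each probe reads was not determined.

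With BDB the same brighter probe of Trp53inp1 went the other way. Its level was -1.75, -1.28, -1.52 and -1.24, below all DMSO arrays, and the log2 difference of -0.66 (SE 0.16) did not pass the test (limma adjusted p = 0.121). It was -0.57, -0.72 and -0.63 within the 3 slides and was called when the slide was a block or all 6 groups were fitted together. The second probe gave -0.41 (limma adjusted p = 0.268). With MEHP, DINCH and DOS the differences of the brighter probe were -0.19, -0.01 and 0.07.

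Bbc3, which encodes PUMA, a trigger of mitochondrial cell death, and Phlda3, a repressor of the kinase Akt, were both slightly lower with DOM. Bbc3 was at 2.49, 2.38, 2.30 and 2.51 with DMSO and at 2.22, 1.91, 1.76 and 2.04 with DOM. Phlda3 was at 4.19, 4.40, 4.22 and 4.29 with DMSO and at 3.99, 3.82, 3.69 and 3.87 with DOM. The groups did not overlap for either gene. The log2 change was -0.43 (SE 0.12, limma adjusted p = 0.0214) for Bbc3 and -0.44 (SE 0.10, limma adjusted p = 0.0103) for Phlda3, both past the test and under 1.5-fold. Bbc3 also differed by -0.30 with DINCH (limma adjusted p = 0.125), where the arrays overlapped DMSO, and by -0.07 to 0.04 with MEHP, BDB and DOS, while Phlda3 differed by -0.12 to -0.01 with the compounds other than DOM.

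Among the targets in stress defence and signalling, Gdf15, a secreted stress hormone of the TGF-beta family, was the 1 called member that fell. Its level was 1.80, 0.92, 0.98 and 0.61 with DMSO and 0.04, -0.43, -0.60 and -0.22 with DOM. The DMSO arrays were widely spread, with replicate 1 the highest, yet all DOM arrays lay below them. The log2 change was -1.38 (SE 0.25, 95% interval -1.94 to -0.83, limma adjusted p = 0.00335), 2.60-fold, and within the 3 slides it was -2.00, -1.55 and -0.83. With BDB the arrays, at 1.62, 1.88, 1.28 and 1.75, overlapped DMSO, with a difference of 0.55 (SE 0.24, limma adjusted p = 0.333).

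The fall of Gdf15 came with a fall of genes that ATF4 controls. The ATF4 list tested held 20 genes, Atf4 itself among them, and was drawn up with earlier results of these data known. With DOM 14 were called and all 14 were lower (70.0%, beside 20.5% of all genes called). The list's median log2 change was -0.67. Atf4 was 1 of the 14, changed by -0.66 on its dimmer probe. Its brighter probe changed by -0.58 and passed the test without reaching 1.5-fold. Shmt2, a serine and glycine enzyme of mitochondria, changed by -1.80, Slc7a5, an amino acid transporter, by -1.30, Psat1, of serine synthesis, by -1.30, Atf3, a stress transcription factor, by -1.24, and Trib3, a pseudokinase of the stress response, by -1.21. With DINCH 8 of the 20 were called (40%, beside 8.26% of all genes), all lower, with a median of -0.45, while Gdf15 was at 0.80, 0.87, 1.07 and 0.38 and differed by -0.30, not past the test. None of the 20 was called with MEHP, BDB or DOS. The part of ATF4 in the level of Gdf15 was not tested.

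Sesn1, a sestrin that restrains mTORC1 and limits oxidative damage, was at 1.86, 2.11, 1.94 and 2.20 with DMSO and at 2.88, 2.85, 2.65 and 3.08 with DOM. The groups were well apart. The log2 change was 0.84 (SE 0.12, 95% interval 0.56 to 1.11, limma adjusted p = 0.00132), 1.79-fold, and within the 3 slides it was 1.01, 0.63 and 0.88. With DINCH its arrays, at 2.59, 2.48, 2.27 and 2.66, were also all above DMSO. The change of 0.47 (SE 0.12, 95% interval 0.20 to 0.75) passed the test (limma adjusted p = 0.0383) without reaching 1.5-fold, and it was the 1 member of 10 to pass with DINCH at any size, beside 14.9% of all genes. With MEHP and DOS the differences were 0.23 and 0.29 and with BDB -0.23, none past the test.

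Zmat3, a zinc finger protein that binds RNA and slows growth, was at 2.38, 2.00, 2.07 and 1.93 with DMSO and at 2.26, 2.16, 2.26 and 2.18 with DOM, a difference of 0.12 (limma adjusted p = 0.451). With BDB its 4 arrays lay below DMSO, with a difference of -0.27 (limma adjusted p = 0.319). With DINCH the level was 1.07, 1.88, 1.99 and 1.63, and replicate 1 was again the lowest, with a difference of -0.45 (limma adjusted p = 0.185) that was -0.26 without that replicate and -1.31, -0.16 and -0.12 within the 3 slides. The rest of its differences, with MEHP and DOS, were -0.05 and -0.01.

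Counted over the set, 6 of 10 members passed limma's adjusted p with DOM at any size, beside 38.7% of all genes. All DOM arrays lay above all DMSO arrays for 3 members, beside 19.0% of all genes, and below them for 3, beside 20.4%. With DINCH all treated arrays lay above DMSO for Sesn1 (11.6% of all genes) and below for Trp53 and Btg2 (12.4%). With BDB they lay below DMSO for 3 members, Ccng1, Trp53inp1 and Zmat3, beside 8.66% of all genes.

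**Figure D2:**
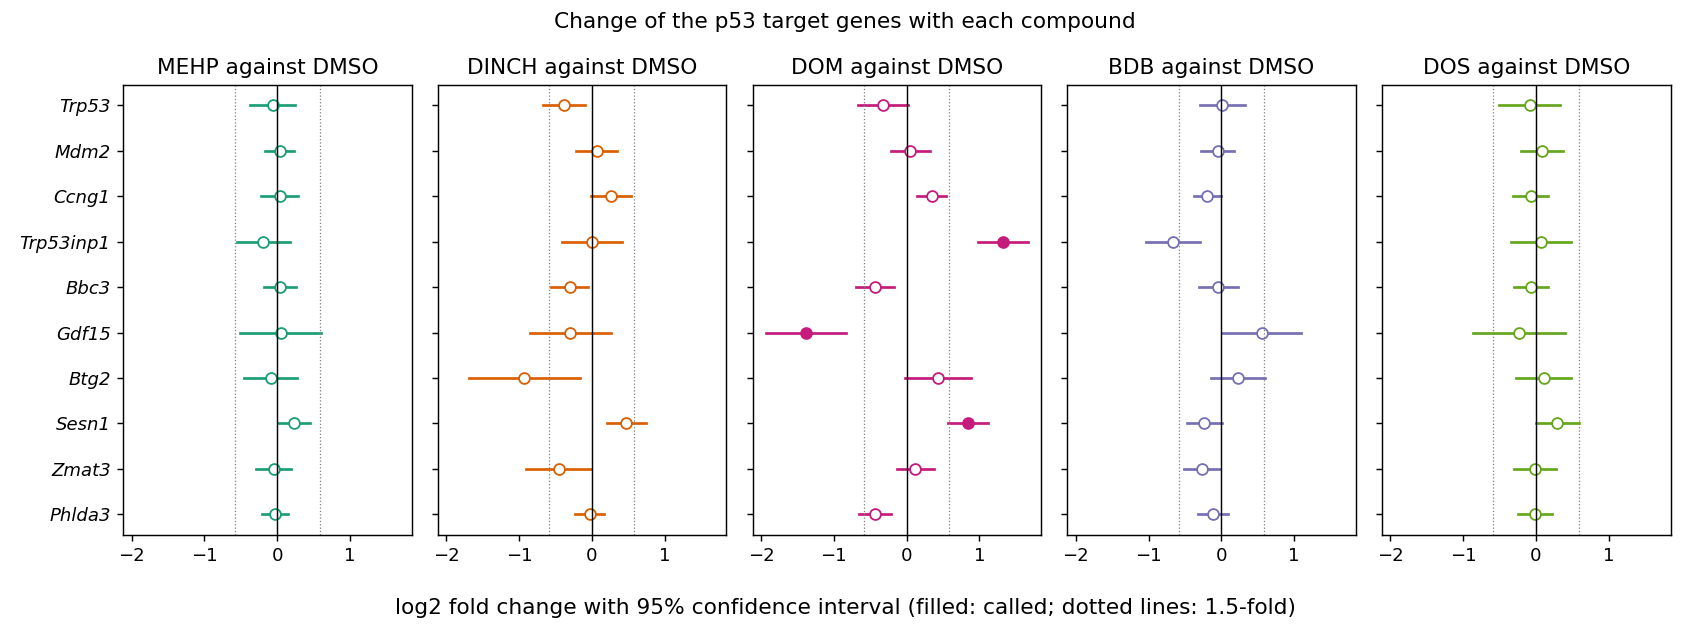
The log2 change of each gene against DMSO (x axis) for the 5 compounds, with 95% confidence intervals from limma; filled points were called and dotted lines mark 1.5-fold. The 3 filled points are Trp53inp1, shown by its brighter probe, and Sesn1 (1.32 and 0.84) and Gdf15 (-1.38), all with DOM.

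Since all compounds were used at the same dose and time, their members were compared in all 10 pairs, with p-values adjusted over the 10 pairs together. DOM and DOS carry the same octyl chains and differ in the core, which has a carbon double bond in the maleate and a single bond in the succinate. Trp53inp1 was higher with DOM than with DOS by 1.25 on the log2 scale (95% interval 0.92 to 1.58, limma adjusted p = 0.00117) on its brighter probe, while its second probe differed by 0.05 (limma adjusted p = 0.872) and was called in 0 of the 10 pairs, so each pair value of Trp53inp1 rests on the brighter probe. Gdf15 differed by -1.14 (95% interval -1.59 to -0.70, limma adjusted p = 0.00616). These 2 members were called, beside 14.7% of all genes. Sesn1 differed by 0.54 (95% interval 0.24 to 0.85, limma adjusted p = 0.0287), Ccng1 by 0.42 (limma adjusted p = 0.0291) and Phlda3 by -0.42 (limma adjusted p = 0.0365), all past the test and under 1.5-fold. For the other 5 members the test was not passed. The difference was -0.04 for Mdm2 (95% interval -0.37 to 0.30), 0.13 for Zmat3 (-0.09 to 0.36), -0.37 for Bbc3 (-0.67 to -0.07), 0.32 for Btg2 (-0.13 to 0.77) and -0.23 for Trp53 (-0.70 to 0.23), so the intervals of Bbc3, Btg2 and Trp53 still hold differences over 1.5-fold.

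Members were also called in the other pairs with DOM. DOM lay in other slide rows than MEHP, DINCH and BDB, so in these pairs row and compound cannot be told apart. Against MEHP, DOM had Trp53inp1 higher, the MEHP level minus the DOM level being -1.51, Gdf15 lower (1.43) and Sesn1 higher (-0.61), beside 18.6% of all genes called. Against DINCH, the DINCH level minus the DOM level was -1.33 for Trp53inp1, -1.35 for Btg2 and 1.08 for Gdf15, beside 22.2%. Against BDB, the DOM level minus the BDB level was 1.98 for Trp53inp1, -1.94 for Gdf15 and 1.07 for Sesn1, beside 26.1%. Of these calls, that of Sesn1 against MEHP was lost without MEHP replicate 3 or DOM replicate 4, at -0.58 to -0.54. That of Btg2 against DINCH was lost without DOM replicate 1, 2 or 3, at -1.35 to -1.26, and kept without DINCH replicate 1, at -0.97. The rest held with each array of the pair left out in turn.

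Some members also differed between compounds when neither was DOM. The DINCH level minus the BDB level was 0.65 for Trp53inp1, -1.16 for Btg2, -0.85 for Gdf15 and 0.71 for Sesn1, 4 of 10 members called beside 9.94% of all genes. The BDB level minus the DOS level was -0.73 for Trp53inp1 (95% interval -1.09 to -0.37, limma adjusted p = 0.0170) and 0.79 for Gdf15 (95% interval 0.37 to 1.21, limma adjusted p = 0.0220), 2 of 10 members beside 2.25% of all genes. BDB and DOS lay in different slide rows, so row and compound cannot be told apart in their pair. Neither BDB nor DOS had a called member against DMSO. Gdf15 with BDB and DOS was no longer called without BDB replicate 2 or 4 or DOS replicate 3 or 4 (0.68 to 0.75), and Trp53inp1 without DOS replicate 4 (-0.63). With DINCH and BDB, Trp53inp1 was not called without replicate 1 of either, BDB replicate 3 or DINCH replicate 4 (0.55 to 0.63), and Btg2 was not called without any 1 of the BDB arrays (-1.26 to -1.07). In the pairs MEHP and DINCH, MEHP and BDB, MEHP and DOS, and DINCH and DOS, 0 members were called. The shares of all genes called in these pairs were 3.48%, 3.22%, 1.44% and 5.90%.

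**Figure D3:**
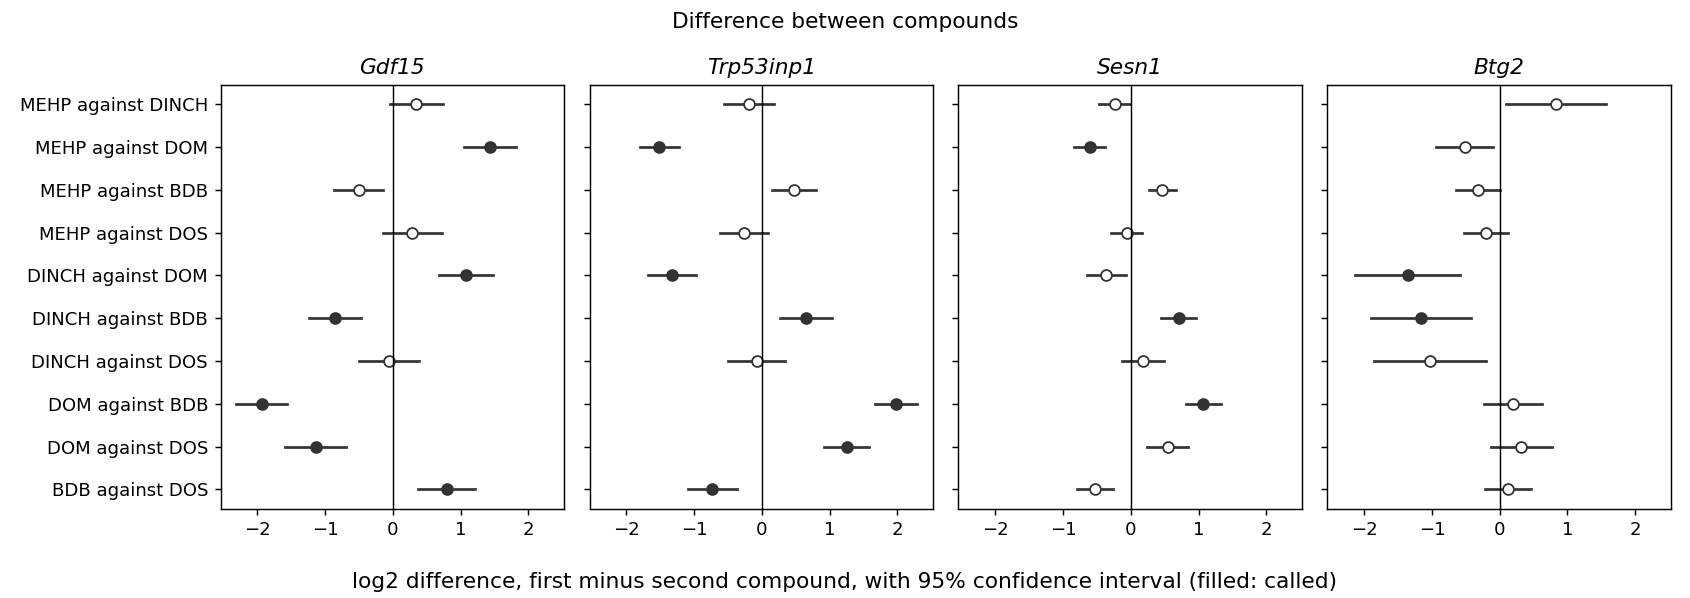
The log2 difference between 2 compounds, first minus second (x axis), with its 95% confidence interval, in all 10 pairs for the 4 members called in any pair; filled points were called. Trp53inp1, shown by its brighter probe, and Gdf15 were called in 6 pairs each, Sesn1 in 3 and Btg2 in 2. In pairs of DOM or DOS with MEHP, DINCH or BDB, slide row and compound cannot be told apart.

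Across the 23 arrays the members did not move as 1 block. The 45 correlations between pairs of members had a median of -0.06 and ran from -0.92 between Trp53inp1 and Gdf15 to 0.83 between Trp53inp1 and Sesn1. With each group's mean removed, the median was 0.07 and the range -0.52 to 0.64. The arrays share treatments, slides and scaling, so these values are descriptions. For Mdm2, the genes with the most similar pattern over the 23 arrays, of 11157 candidates, were Mat2b (r = 0.81), Mtf2 (0.78) and Josd1 (0.78). With group means removed these were 0.86, 0.82 and 0.84, and over the 6 group means 0.72, 0.55 and -0.18. For Ccng1 they were Tmem263 (r = 0.88), Ptgr2 (0.88) and Mon1b (0.86), with group means removed 0.76, 0.64 and 0.62, and over the 6 group means 0.92, 0.97 and 0.96.

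Genes of the wider p53 pathway were also called in both directions. Of 40 other p53 targets on the array 35 were tested. With DOM 5 were called (14.3%, beside 20.5% of all genes): Ephx1, a detoxifying epoxide hydrolase, rose by 0.95, Dcxr, a sugar reductase, by 0.62 and Xpc, a DNA damage sensor, by 0.60, while Ckap2, a spindle protein, changed by -1.63 and the kinase Dyrk3 by -0.85. With DINCH 5 were called as well (14.3%, beside 8.26% of all genes): Ddb2, another DNA damage sensor, rose by 1.09 and Pltp, a lipid transfer protein, by 0.63, while Sesn2 changed by -0.73, Ddit4, an inhibitor of mTORC1, by -0.60 and Tigar, a brake on glycolysis, by -0.78 on its second probe. Sesn2 is also among the ATF4 targets. None was called with MEHP, BDB or DOS, and the list's median lay between -0.05 and 0.02 with all 5 compounds.

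Cdkn1a and Bax, 2 of the other p53 targets, were not called with any compound. Cdkn1a, which encodes the cell cycle inhibitor p21, differed by -0.25 with DOM (limma adjusted p = 0.0709) and by -0.58 with DINCH (limma adjusted p = 0.0143), where it passed the test but stayed just under 1.5-fold. Bax, a pore-forming death gene, differed by -0.13 with DOM and by -0.14 with DINCH.

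Of 21 tested regulators and partners of p53, 2 were called with DOM (9.52%, beside 20.5% of all genes). Chek2, a kinase that activates p53 after DNA breaks, changed by -1.26, and Ppp1r13l, an inhibitor of p53, rose by 0.67. With MEHP 1 was called (4.76%, beside 1.69% of all genes), Trp53bp1, a protein of the DNA break response, which rose by 0.87 on its dimmer probe and differed by 0.28 on the brighter one without passing the test. None was called with DINCH, BDB or DOS.

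**Figure D4:**
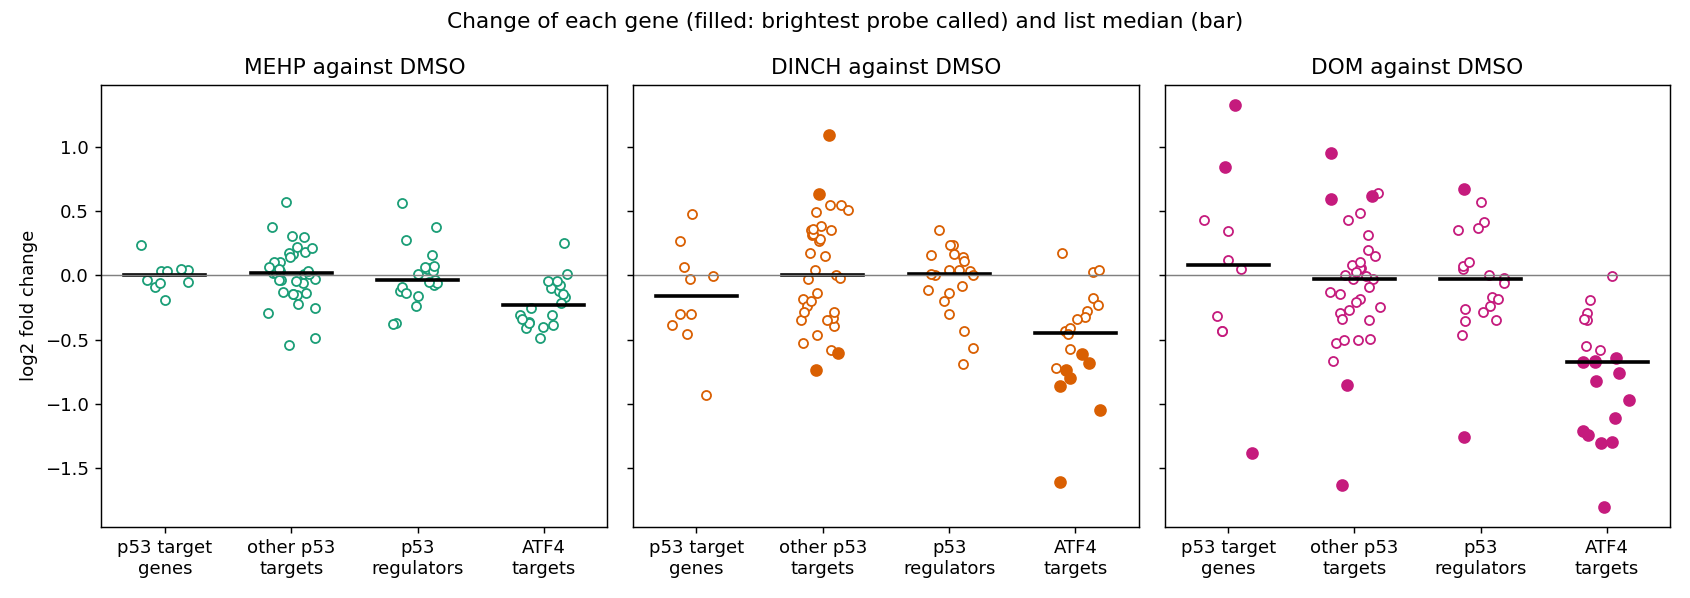
Each point is the log2 change of 1 gene against DMSO (y axis, brightest probe) in the 10 members and in 3 further lists, for MEHP, DINCH and DOM; filled points were called and bars are list medians. The p53 lists scatter around 0 in all 3 panels. With DOM the ATF4 targets, a list that includes Atf4 itself, have a median of -0.67 and all lie at or below 0.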

How the data were processed

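Each RNA was labelled with 1 dye and hybridized to its own array. The authors extracted spot intensities with Feature Extraction 11.5.1.1, which subtracts background, and deposited these intensity values on a linear scale with no normalization. Their own table of normalized log2 values (75th percentile shift, median of all samples as baseline), also deposited, served as an alternative. Here, outlier spots were left out, the processed intensity (floor 1) was turned to log2 and the array's 75th percentile subtracted. Probes entered a test if every array of at least 1 of its 2 groups had them well above background and not under the 20th percentile. Tests were run in R 4.3.3 with limma 3.58.1 (lmFit, eBayes, Benjamini-Hochberg adjustment), each compound with DMSO alone. Values printed for a gene come from its brightest probe over the 23 arrays, and a call on any probe counted. The fit was tested on simulated data. Alternatives changed the normalization, background correction (normexp, offset 50), filter, probe choice, blocks and arrays used. From each list, at most 5 called genes per compound were named. The members, lists and tests were chosen with earlier results of these data known. Replicate numbers were read as pairs for DINCH, DOM, BDB and DOS, where same-numbered arrays deviated together in every pair (r from 0.11 to 0.55), and not for MEHP (r from -0.06 to 0.57). They entered only the alternative with the replicate block, and the printed SEs, intervals and p-values come from fits without a block. MEHP and DOM replicate 2 (-0.06 and 0.11) and DINCH and DOS replicate 3 (0.17 and 0.32) lay on another slide than their DMSO array. The part of the slide in these values was not tested. This pairing comes from the values, not the labels. The number of arrays limits the precision. p-values weigh each difference against the spread between these arrays, which limma moderates over the probes tested.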

Additional observations from a re-analysis of the deposited data

Results flagged for a closer look

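Over the 10 members and the 5 groups of 4 arrays, 50 sets of 4 values were checked for a single array far from the rest. In 1 of them, Btg2 with DINCH, replicate 1 lay at -2.01 while the other 3 arrays lay between -0.48 and -0.39, so that the gap made up 0.946 of the whole range. Chance sets off this check in about 1 set in 20.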

How the results depend on the processing

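With DOM, Trp53inp1 (its brighter probe), Sesn1 and Gdf15 were called in all 20 tested alternatives. The count of called members with DINCH went from 0 to 1 (Btg2) with the slide as a block, with the replicate block and with all 6 groups in 1 fit. With BDB it went from 0 to 1 (Trp53inp1) with the slide as a block and with all 6 groups in 1 fit, and it was 0 with the replicate block. The replicate block changed no other count with DMSO: 3 with DOM and 0 with MEHP and DOS. In the DOM and DOS pair the count of 2 became 1 with no filter on dim probes, where Gdf15 was not called, and Sesn1 was added with the slide as a block, without DOM replicate 3 and without DOS replicate 4. Btg2 was called with DOM without DOM replicate 4. The median log2 change with DOM was -0.0659 within slide 1 against 0.0837 in all. With single arrays left out, the median ranged from -0.212 to -0.0976 with DINCH and from -0.0353 to 0.0318 with DOS, the highest values being those without DMSO replicate 1 and without DOS replicate 1. Causes of these shifts were not tested. Leaving out each array of a pair in turn kept 11 of the 17 calls of members between compounds throughout, and 6 were lost at least once. This check of the other pairs and the row of the slide as a block (DOM and DOS) were chosen after seeing the data. Of 1368 alternative values for single members, 1286 counted as the same, 54 moved, 9 passed the threshold and 19 fell short of it. A tested value of unchanged sign counted as the same if its call was kept, whatever its size. Within-slide values, which had no call, and values that changed sign counted as the same if they stayed within the compound group's SD, and otherwise as moved. No called change reversed.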
